A study of Homo sapiens with 13 samples.

Results

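The 10 imprinted genes H19, IGF2, KCNQ1OT1, CDKN1C, MEG3, DLK1, PEG3, MEST, SNRPN and PLAGL1 were read by name in 6 ChIP-seq peak lists from MDA-MB-231 cells. They were 7 of 19894 protein-coding genes and 3 of 18702 lncRNA genes with a canonical transcription start site (TSS) in GENCODE release 44 on hg19. Each was read over 3 kb windows centred on its TSSs, over its gene body and over 100 kb on either side, and the CTCF peaks between H19 and IGF2 were counted apart.

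An imprinted gene is transcribed mainly from the copy inherited from 1 parent. The copies are told apart by DNA methylation set in the germ line at imprinting control regions, which are rich in CpG and often lie at a promoter. At some of these regions the unmethylated copy binds CTCF, which insulates a promoter from enhancers, and at others it starts a long non-coding RNA that silences its neighbours.

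MDA-MB-231 is an established human line from a triple-negative breast cancer of the basal B class, and the cells were unmodified and grown in serum-containing medium. Antibodies were directed to H3K4me1, found at enhancers and promoter flanks, to H3K27ac, found at active enhancers and promoters, to H3K4me3, found at promoters, and to the acetyltransferases p300/CBP, RNA polymerase II (Pol II) and CTCF. There were 2 replicate libraries per antibody and 1 p300/CBP library made from pooled immunoprecipitations, and 2 input libraries were not used here. The replicates had been merged before peaks were called, and a peak carries a position only, so depth is unknown, no replicate error can be given, and a peak does not tell which parental copy it came from.

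The lists ranged from 13984 peaks for p300/CBP to 88319 for H3K4me1, and the CTCF list held 39596. The paper reports fewer peaks for p300/CBP, Pol II and CTCF than these lists hold. The label of the line was read against marker promoters. H3K27ac touched the canonical windows of 6 of 6 basal B genes (VIM, CD44, FOSL1, CAV1, AXL and ZEB1) and of 2 of 6 luminal genes (FOXA1 and ERBB3), and those of ESR1, GATA3 and CDH1 held no peak of any list. A window called bare is one that touches no peak of any list.

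Most of the imprinted promoters were bare. Of the 10 canonical windows, 7 touched no peak of any list: those of IGF2, MEG3, DLK1, PEG3, MEST, SNRPN and PLAGL1. The windows of KCNQ1OT1, a long non-coding RNA, and of CDKN1C, which encodes the cyclin-dependent kinase inhibitor p57, each held H3K4me1, H3K27ac, H3K4me3 and Pol II. The window of H19, a long non-coding RNA, held CTCF alone. No member had p300/CBP.

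Per list, 1 of the 7 protein-coding members (CDKN1C) held H3K4me1, against 59.3% of all protein-coding genes, H3K27ac, against 61.4%, H3K4me3, against 62.7%, and Pol II, against 58.4%. None of the 7 held CTCF, against 17.6%, or p300/CBP, against 0.769%. Of the 3 lncRNA members, 1 (KCNQ1OT1) held H3K4me1, H3K27ac, H3K4me3 and Pol II, against 33.6%, 27%, 24.4% and 24.4% of all lncRNA genes. CTCF was held by 1 lncRNA member (H19), against 11.5%, and p300/CBP by none, against 1.83%. A window without a peak of any list was found for 28.0% of protein-coding and 56.3% of lncRNA genes.

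The bare windows of the protein-coding members were not poor in CpG, whereas the MEG3 canonical start had an observed-to-expected CpG ratio of 0.415. The MEG3 start group around 101292461, from which the usual MEG3 RNA starts, had a ratio of 0.656 and was bare as well. All 7 protein-coding members had CpG-rich canonical starts, with a ratio of at least 0.6 and at least 50% G and C over 1 kb. Among 12931 such protein-coding windows, 84.2% held H3K4me3, 81.3% held H3K27ac, 77.6% held Pol II, and 12.7% touched no peak of any list. Of the 7 members, 1 held each of those marks and 6 touched no peak. With 7 genes picked by name, these counts describe the genes and were not tested against the background.

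A gene can have more than 1 start, so all 85 annotated TSSs of the members were read, joined into 35 start groups where they lay less than 500 bp apart. H3K4me1 was found at 10 groups, H3K4me3 at 6, CTCF at 6, H3K27ac at 4, Pol II at 3 and p300/CBP at none, and 22 groups touched no peak. MEG3 alone supplied 11 of the 35 groups, most of them bare. Start groups of all genes were not read, so these counts have no background share and describe the annotated starts only. H3K27ac appeared at 2 members beyond KCNQ1OT1 and CDKN1C, in both cases at a start other than the canonical one, as described for MEST and PLAGL1.

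**Figure D1:**
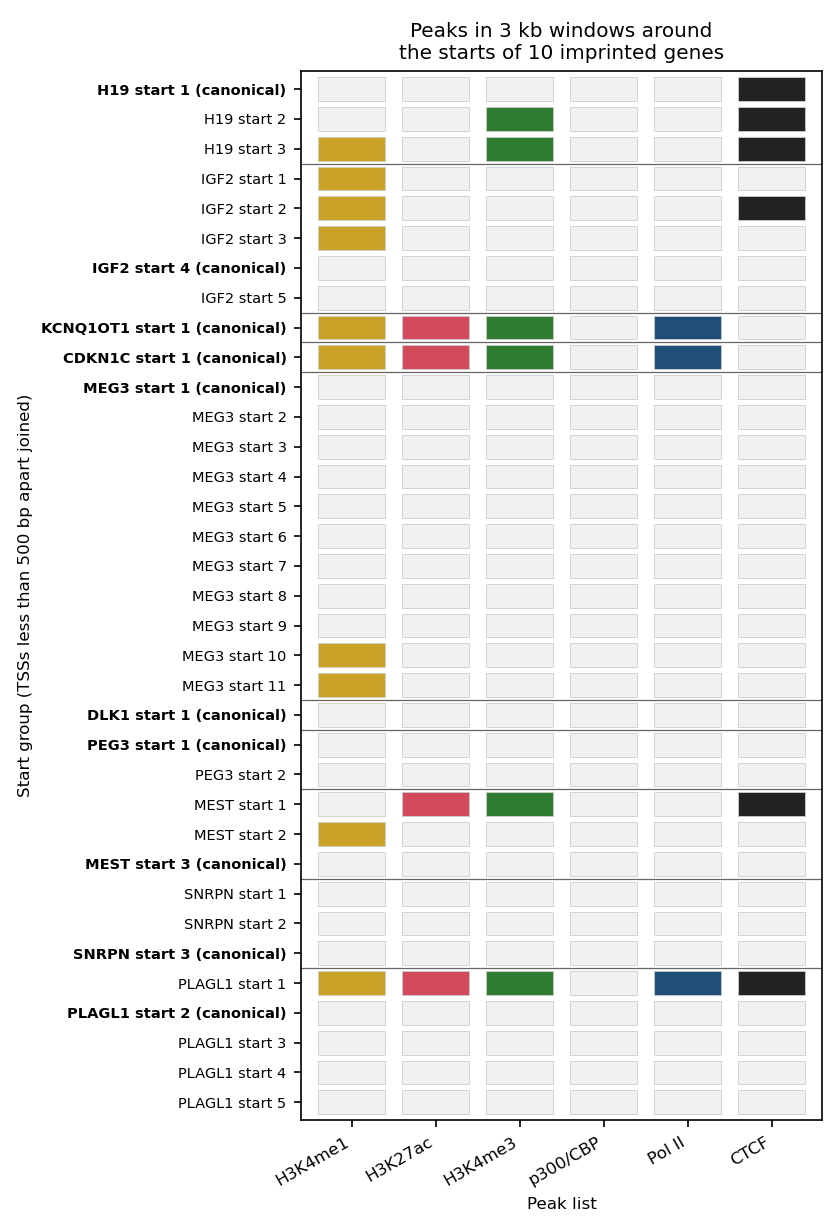
Each row is 1 of 35 start groups of the 10 genes, each column is a peak list, and a coloured cell means that at least 1 peak shares at least 1 bp with the 3 kb window. Canonical starts are in bold; Pol II fills 3 cells, at KCNQ1OT1, CDKN1C and the first start of PLAGL1, and the p300/CBP column is empty.

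H19 and IGF2 are neighbours on chromosome 11 and are transcribed from opposite parental copies: H19 from the maternal copy, and IGF2, which encodes a fetal growth factor, from the paternal one. Between them, next to H19, lies a control region known as a cluster of CTCF sites. The annotation gives H19 3 starts, at 2025782 (canonical), 2022536 and 2019072, on the minus strand, and the start of the short, well known H19 RNA is the most downstream of them. Counted between the canonical transcripts, a stretch of 125 kb, there was 1 CTCF peak, chr11:2058051-2058501, in intergenic sequence. Counted from the downstream H19 start, a stretch of 131 kb, there were 7, because 6 further peaks lay inside the long canonical H19 transcript, all in its introns. Peaks are written as listed, with the end as the first base after the peak.

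The 6 intronic CTCF peaks formed a tight row. They were chr11:2019701-2019951, 2020201-2020401, 2021001-2021301, 2021951-2022101, 2023301-2023551 and 2023601-2024401, or from 0.629 to 5.33 kb upstream of the downstream H19 start. Of 39596 CTCF peaks, 82 (0.207%) opened a 5 kb window with at least 6 peaks. The window and the count were set to the row itself, so this share describes the row and is not a test of its rarity. H19 with its 100 kb flanks had 5.25 CTCF peaks per 100 kb, a rate that 93.6% of protein-coding genes did not exceed. That rate rests on 11 peaks, and 6 of them are the row itself, so it is not a separate observation.

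The letters under those peaks repeat. The word GGNGGCAG, the core of the CTCF motif, was searched on both strands of hg19 and found in 5 of the 6 intronic peaks, in each case on the minus strand, while the peak at 2019701 held none. Over the series 20.1% of CTCF peaks held the word, against 11.2% of stretches of equal length 2 kb to their right. Around the word the sequence itself was shared: 8 copies of a 41-base repeat, with at least 30 bases identical to their majority sequence, were found in 363 kb searched on both strands, all 8 on the minus strand and all within this row. They are shown 5′ to 3′ on the minus strand, from the nearest to the farthest from the downstream H19 start, with the 8 bases at the place of the word in capitals, because 6 of them lie in CTCF peaks and 2 do not.
chr11:2020262-2020302, in a peak: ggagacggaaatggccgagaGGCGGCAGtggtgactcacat
chr11:2021185-2021225, in a peak: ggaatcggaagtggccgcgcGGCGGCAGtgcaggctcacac
chr11:2021591-2021631, outside a peak: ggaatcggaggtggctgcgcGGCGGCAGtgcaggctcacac
chr11:2021997-2022037, in a peak: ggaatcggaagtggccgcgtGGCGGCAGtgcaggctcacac
chr11:2022403-2022443, outside a peak: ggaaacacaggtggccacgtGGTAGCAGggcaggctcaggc
chr11:2023430-2023470, in a peak: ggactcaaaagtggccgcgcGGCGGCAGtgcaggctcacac
chr11:2023831-2023871, in a peak: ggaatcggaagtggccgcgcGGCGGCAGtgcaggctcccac
chr11:2024236-2024276, in a peak: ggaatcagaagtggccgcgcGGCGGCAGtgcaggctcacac

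The 6 copies inside peaks shared 30 to 40 of their 41 bases pair by pair and lay in 5 peaks, the widest of which, at 2023601, held 2 copies. The lowest of these pairwise values, 30, is also the cutoff of the search. The split of copies inside and outside peaks is therefore a description and was not tested. The copies outside peaks differed in kind. The copy at 2022403 matched the majority sequence at 30 of 41 bases, its capitals do not match GGNGGCAG, and its middle lay 323 bp from the nearest CTCF peak. The copy at 2021591 matched at 39 of 41 bases, held the word, and yet its middle lay 311 bp from the nearest peak. Every stretch of 50 bases within 100 bp of each of the 8 copies occurred once in the 363 kb, the copy at 2021591 included. The rest of the genome was not searched, so whether reads map uniquely there was not tested. In contrast, the intergenic peak at 2058051 held 1 word on the plus strand and no copy of the repeat.

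Neither H3K27ac nor Pol II touched the canonical H19 transcript. H3K4me3 peaks at chr11:2019251-2020051 and 2023501-2024201 lay upstream of the downstream start and shared bases with 3 of the CTCF peaks, and an H3K4me1 peak at chr11:2018601-2018901 lay in the body. Neither H3K4me3 peak met H3K27ac or Pol II. H3K4me3 peaks that touched CTCF but neither H3K27ac nor Pol II were 519 of 24693, or 2.10%. The nearest H3K27ac to the canonical start was 55.6 kb away and the nearest Pol II 44.5 kb away.

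IGF2 showed CTCF and H3K4me1 in its body and nothing else. Its canonical start, at 2160619, and the group at 2158520 were bare, and the starts at 2179621, 2170809 and 2162468 each touched H3K4me1. CTCF peaks lay in IGF2 introns at chr11:2171401-2171751, 2172651-2173551 and 2177701-2178001. The first of them touched the window of the start at 2170809, and the 3 held no GGNGGCAG word. The nearest H3K4me3 to the canonical IGF2 start was 41.9 kb away, the nearest H3K27ac 35.9 kb and the nearest Pol II 39.7 kb.

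Between the canonical transcripts there were 6 H3K4me1 peaks, 1 H3K27ac peak, 1 H3K4me3 peak and no Pol II or p300/CBP. The H3K27ac peak, chr11:2117801-2119351, sat in an H3K4me1 region of 9050 bp, chr11:2112601-2121651, which met the definition of a candidate active enhancer (cAE): an H3K4me1 region that shares at least 1 bp with H3K27ac and touches no 3 kb window of a protein-coding canonical TSS. It began 39.0 kb downstream of the canonical IGF2 start, and the single CTCF peak of the stretch stood between it and the canonical H19 start. The antisense gene IGF2-AS and the insulin gene INS, both within 100 kb, had bare canonical windows.

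**Figure D2:**
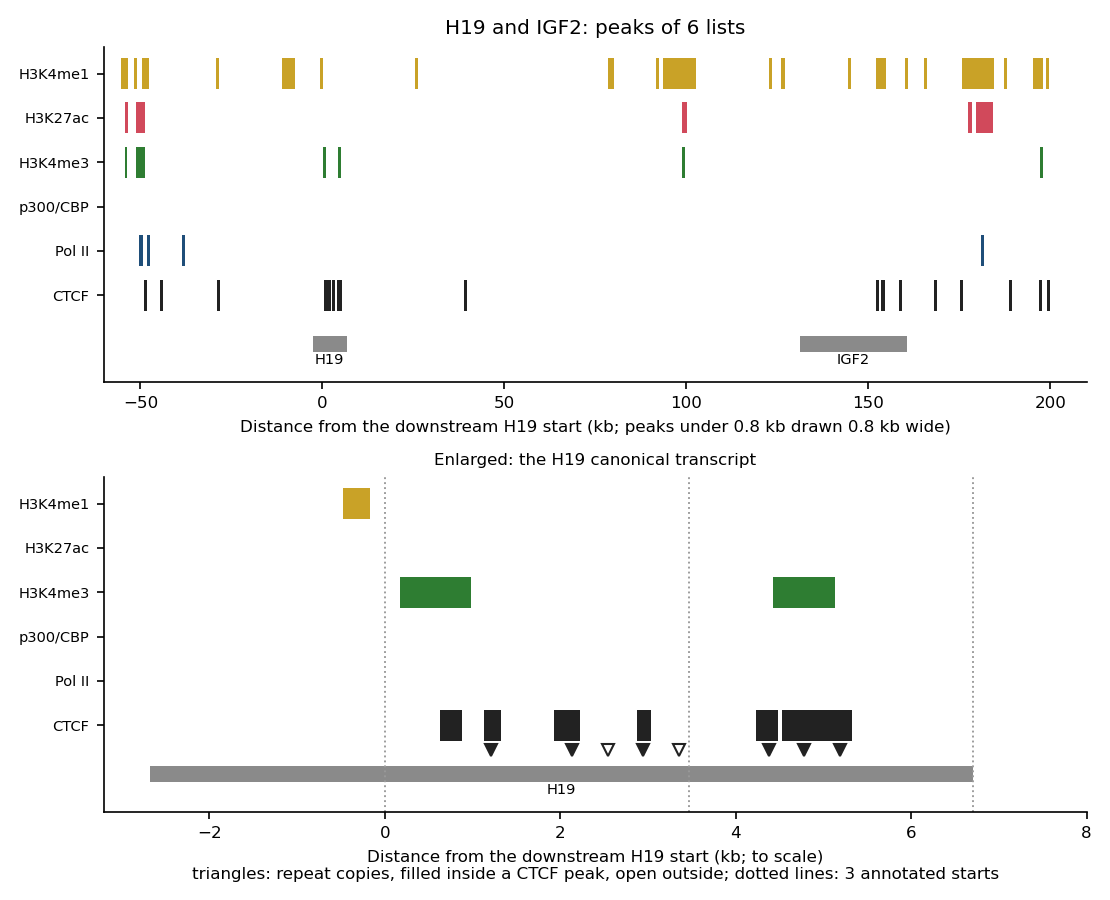
Peaks of the 6 lists are drawn as blocks against distance in kb from the downstream H19 start, over both genes above and over the H19 canonical transcript below, where blocks are to scale. In the lower panel 6 CTCF blocks lie between 0.629 and 5.33 kb; filled triangles mark the 6 repeat copies inside them and open triangles the 2 outside, and the H3K27ac, p300/CBP and Pol II tracks are empty.

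Centromeric to this pair lies a second imprinted domain, in which KCNQ1OT1 is transcribed from the paternal copy, antisense to and within KCNQ1, from a start that is methylated on the maternal copy. CDKN1C is its maternally expressed neighbour. Of all the members' starts, that of KCNQ1OT1 carried the widest promoter pattern. H3K27ac covered chr11:2719801-2722601 (2800 bp), H3K4me3 covered 2719651-2722401 (2750 bp) and Pol II covered 2720951-2722301 (1350 bp), against median widths of 1300, 1150 and 850 bp in their lists. All 3 spanned the canonical TSS at 2721233, and H3K4me1 peaks flanked it at 2718901-2719951 and 2722151-2723101.

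Past its start, the 103 kb body of KCNQ1OT1 held little. It had 1 Pol II peak, the one at the start, which covered 0.276% of the body. Of 4792 gene bodies of at least 50 kb with Pol II at their canonical window, 22.4% had that share or less, and their median was 0.783%. A CTCF peak at chr11:2713701-2713851 lay 7.38 kb into the gene, and an H3K4me1 peak at 2633551-2635251 lay 86.0 kb into it. The canonical window of KCNQ1, whose intron holds the KCNQ1OT1 start, had H3K4me1 and no other list.

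The peaks at CDKN1C were narrower. H3K27ac measured 450 bp (chr11:2906451-2906901), H3K4me3 650 bp (2906401-2907051), Pol II 500 bp (2906651-2907151) and H3K4me1 1250 bp (2906751-2908001). H3K4me3, Pol II and H3K4me1 spanned the TSS at 2907005. H3K27ac did not, and lay from 105 to 554 bp into the gene. A further H3K27ac peak of 300 bp and a further H3K4me3 peak of 600 bp overlapped in the exons toward the 3′ end of the gene, 1.60 to 2.20 kb from the start for H3K4me3.

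CDKN1C stood in the most densely marked surroundings of the 10 genes. It had 11.4 H3K4me1, 5.92 H3K27ac, 4.44 H3K4me3 and 4.44 Pol II peaks per 100 kb, against protein-coding medians of 5.15, 2.37, 1.49 and 1.76, and 8 cAEs within 100 kb of its body, against a median of 3. The imprinted neighbours PHLDA2 and SLC22A18 both held H3K4me1, H3K27ac, H3K4me3 and Pol II at their canonical windows, and PHLDA2 held CTCF as well. The nearest CTCF peak to CDKN1C was chr11:2909551-2910001, 2.55 kb upstream, followed by 3 more at 2912601-2912751, 2913351-2913701 and 2914151-2914351. Its nearest p300/CBP peak, chr11:2920001-2920151, lay 13.0 kb upstream in an intron of SLC22A18AS. Of protein-coding genes, 94.3% had theirs as far or farther.

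**Figure D3:**
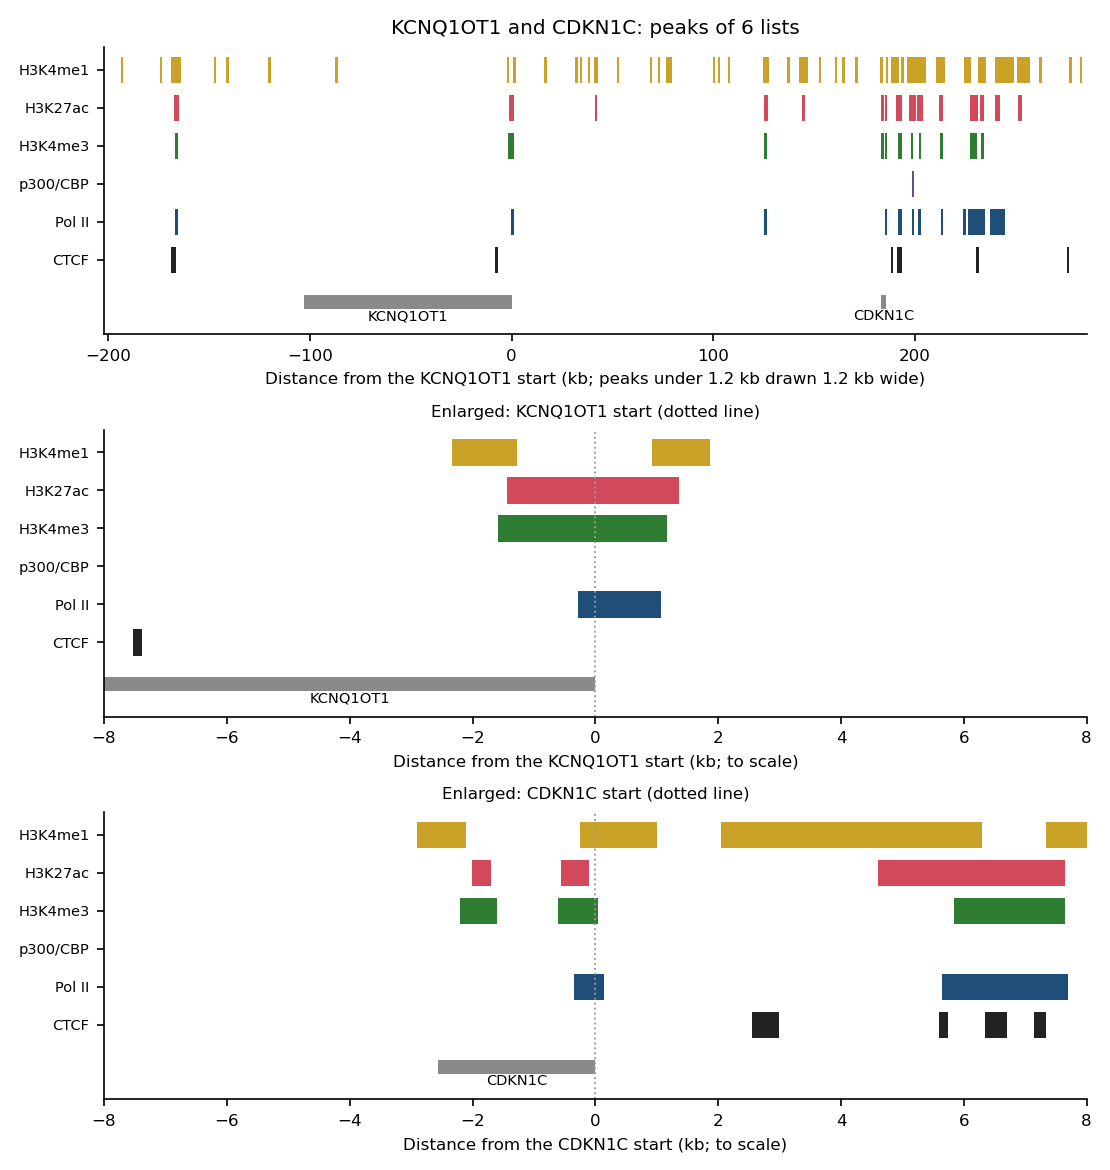
Peaks of the 6 lists are drawn against distance in kb from the KCNQ1OT1 start over the whole domain (top) and, to scale, within 8 kb of the KCNQ1OT1 start (middle) and of the CDKN1C start (bottom). H3K27ac and H3K4me3 blocks of 2800 and 2750 bp span the first start, blocks of 450 and 650 bp lie at the second, and few blocks fall over the KCNQ1OT1 body to the left of 0.

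PLAGL1 and MEST, 2 paternally expressed genes, showed peaks at a start other than the canonical one. PLAGL1 encodes a zinc finger transcription factor that restrains growth. Its canonical start, at chr6:144329396, is known to be methylated on the maternal copy, whereas its distal start, at 144385736, is known to be used from both copies in blood. At the distal start H3K4me3 covered chr6:144384501-144385651, with H3K27ac at 144384751-144385151, Pol II at 144384851-144385401, CTCF at 144385201-144385351 and H3K4me1 at 144384251-144384651. All 5 peaks lay downstream of that TSS, from 86 to 1485 bp into the gene.

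The canonical PLAGL1 start and the 3 starts downstream of it were bare, and no peak lay within 5.11 kb of the canonical one. The nearest there was a CTCF peak, chr6:144334501-144334901, and the nearest H3K4me3 was the one at the distal start, 55.1 kb away. HYMAI, a lncRNA that starts at the same place, was likewise without a peak. Both PLAGL1 starts were CpG-rich, with observed-to-expected ratios of 0.894 (distal) and 0.909 (canonical) over 1 kb. The 150 bases upstream of the outermost TSS of each start group, 144385736 for the distal group and 144329567 for the group that holds the canonical TSS, are set side by side, with CG in capitals. Each stretch holds 16 CG, and the peaks were found at the distal start alone of the 5 starts.
PLAGL1 distal start, upstream of 144385736, chr6:144385737-144385886, minus strand: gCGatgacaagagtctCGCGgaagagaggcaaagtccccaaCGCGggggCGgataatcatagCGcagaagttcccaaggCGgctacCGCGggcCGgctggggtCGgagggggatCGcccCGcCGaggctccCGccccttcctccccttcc
PLAGL1 group of the canonical start, upstream of 144329567, chr6:144329568-144329717, minus strand: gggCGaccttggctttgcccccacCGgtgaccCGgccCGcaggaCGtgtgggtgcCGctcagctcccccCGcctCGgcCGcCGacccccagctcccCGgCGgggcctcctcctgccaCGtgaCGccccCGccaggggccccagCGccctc

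MEST encodes a protein of the hydrolase fold family. Its canonical start, at chr7:130131926, is known to be methylated on the maternal copy. The start group upstream of it, at 130126012 to 130126183, is known to escape imprinting in some tissues. At the upstream group H3K27ac covered chr7:130126151-130126851, H3K4me3 covered 130126051-130127051 and CTCF covered 130125851-130126201, with no Pol II. Each of the 3 spanned the TSS at 130126177, and they lay in exons that MEST shares in position with the antisense lncRNA MESTIT1. Between this group and the canonical start lay an H3K4me1 region, chr7:130127951-130129851, with H3K27ac at 130129251-130129651. It counted as a cAE 2.08 kb upstream of the canonical start, and it touched the canonical window of MESTIT1. From there a stretch of 187 kb across the canonical start was free of peaks of any list, and 3.16% of protein-coding starts had a stretch as long or longer. The nearest Pol II peak was 50.6 kb away, at the promoter of CEP41. The canonical window of COPG2, the imprinted gene on the other side, held H3K4me1, H3K27ac, H3K4me3 and Pol II.

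The 150 bases upstream of the canonical MEST start, with CG in capitals, hold 15 CG and no peak.
MEST, chr7:130131776-130131925, plus strand: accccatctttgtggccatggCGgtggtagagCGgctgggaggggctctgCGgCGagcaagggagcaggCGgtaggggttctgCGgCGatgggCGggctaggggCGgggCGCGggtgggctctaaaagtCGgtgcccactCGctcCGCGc

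SNRPN and PEG3 lay in the emptiest surroundings. SNRPN, paternally expressed, encodes a spliceosome protein, and its canonical start lies in the control region of the Prader-Willi and Angelman syndromes. Its 155 kb body with both flanks held 2 CTCF peaks, chr15:25006951-25007151 and 25092251-25092351, and no peak of the other 5 lists. The latter peak lay in an intron, 108 kb upstream of the canonical start at 25200134. Around that start 590 kb were free of any peak, and 0.724% of protein-coding starts had a stretch as long or longer. The nearest H3K27ac, chr15:25682451-25684951, was 482 kb away, at the promoter of UBE3A, which is imprinted in neurons. The canonical windows of SNURF, which shares this start, and of SNHG14, whose body comes within 100 kb of SNRPN but whose canonical start is at 25438460, held no peak.

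PEG3 encodes a zinc finger protein, is paternally expressed and shares its start with ZIM2. Over its body and 100 kb on either side there was no H3K4me1, H3K27ac, Pol II or p300/CBP peak. It had H3K4me3 at chr19:57331851-57332101, 20.0 kb into the gene in an intron, and at 57289851-57290351, and CTCF at 57275801-57275901 and 57237551-57237751. The 278 kb around its canonical start at 57352094 held no peak of any list, and 1.59% of protein-coding starts had a stretch as long or longer. Nearest were H3K4me1 at 244 kb and H3K27ac and Pol II at 245 kb.

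DLK1, a transmembrane protein related to Notch ligands, and the lncRNA MEG3 are transcribed from the paternal and the maternal copy of 1 domain on chromosome 14. No H3K27ac, H3K4me3, Pol II or p300/CBP peak touched either body. DLK1, whose start at 101193229 has an observed-to-expected CpG ratio of 0.905, had no peak of any list in its body. In contrast, MEG3 had 4 H3K4me1 peaks and 1 CTCF peak, chr14:101317451-101317901, in its 81.6 kb body. Of the 11 MEG3 start groups, 9 were bare, including the canonical one at 101245747 and the group of 11 TSSs around 101292461 from which the usual MEG3 RNA starts, and the other 2 touched H3K4me1. RTL1 and MEG8, imprinted genes within 100 kb of MEG3, had bare canonical windows.

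A block of marks lay upstream of both genes. H3K27ac covered chr14:101153801-101161751 (7950 bp), Pol II covered 101153201-101160001, H3K4me3 covered 101154601-101155901 and 101157401-101159651, and p300/CBP covered 101159551-101159801. It ended 31.5 kb upstream of the DLK1 start and 84.0 kb upstream of the canonical MEG3 start for H3K27ac. The p300/CBP peak was 33.4 kb from DLK1, and 87.1% of protein-coding genes had theirs as far or farther. The block held 2 cAEs, chr14:101153151-101158851 and 101159901-101162051. No CTCF peak lay between it and DLK1, and the nearest CTCF peak to DLK1, chr14:101129551-101130051, was on the far side of the block at 63.2 kb.

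**Figure D4:**
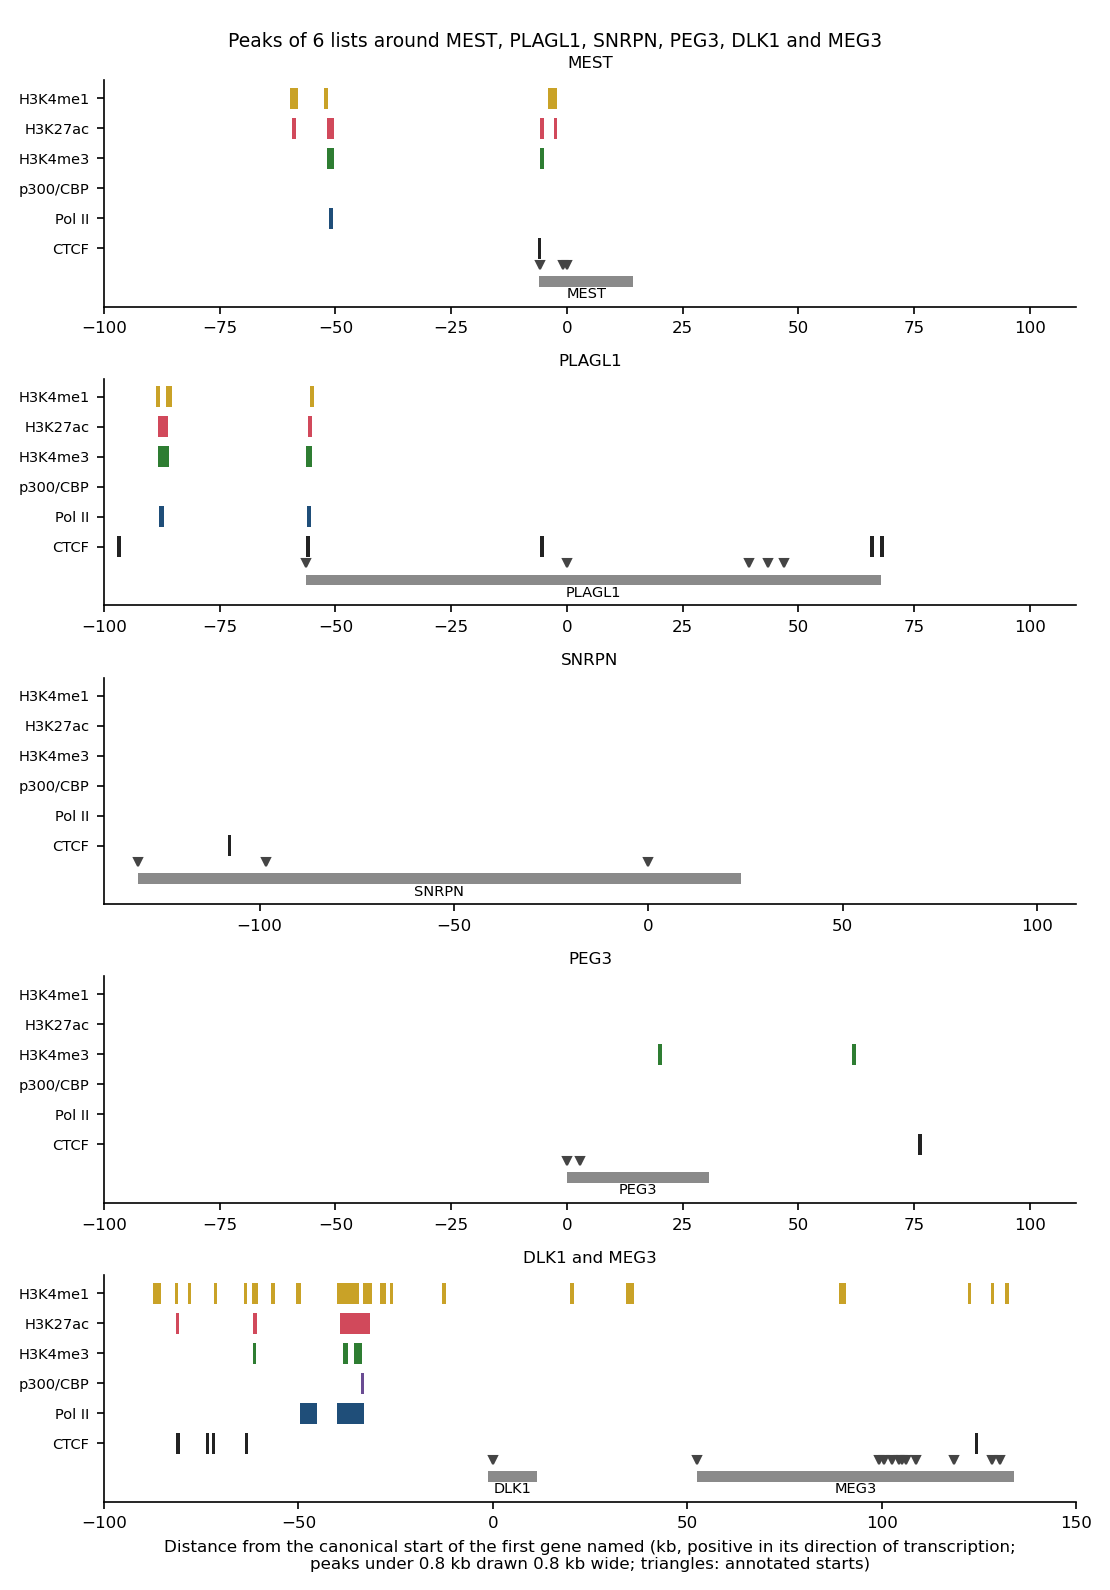
Peaks of the 6 lists are drawn against distance in kb from the canonical start of MEST, PLAGL1, SNRPN, PEG3 and DLK1, positive in the direction of transcription, with triangles at annotated starts. Blocks stand at the upstream starts of MEST and PLAGL1 and none at the canonical ones, the tracks of SNRPN and PEG3 are almost empty, and the marked block upstream of DLK1 ends before the gene.

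Set against all protein-coding genes, the members' surroundings varied widely. H3K4me1 ran from 0 (PEG3 and SNRPN) to 11.4 (CDKN1C) peaks per 100 kb, with a median of 5.00 against 5.15. H3K27ac lay below the protein-coding median in 9 of 10 members, with a median of 1.27 against 2.37, and Pol II likewise in 9 of 10, with 0.685 against 1.76. CTCF lay below it in 7 of 10 members, and H19, IGF2 and CDKN1C lay above it. The members had 21 different cAEs within 100 kb, of 24323 found with the definition used here. The study took its promoters from RefSeq and reports a larger number of cAEs, so the 2 sets are not the same. PEG3, SNRPN and PLAGL1 had none, and of the 4 near KCNQ1OT1, 2 were the regions that flank its own start. Regions of neighbouring members overlap, so these values are not independent of each other.

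**Figure D5:**
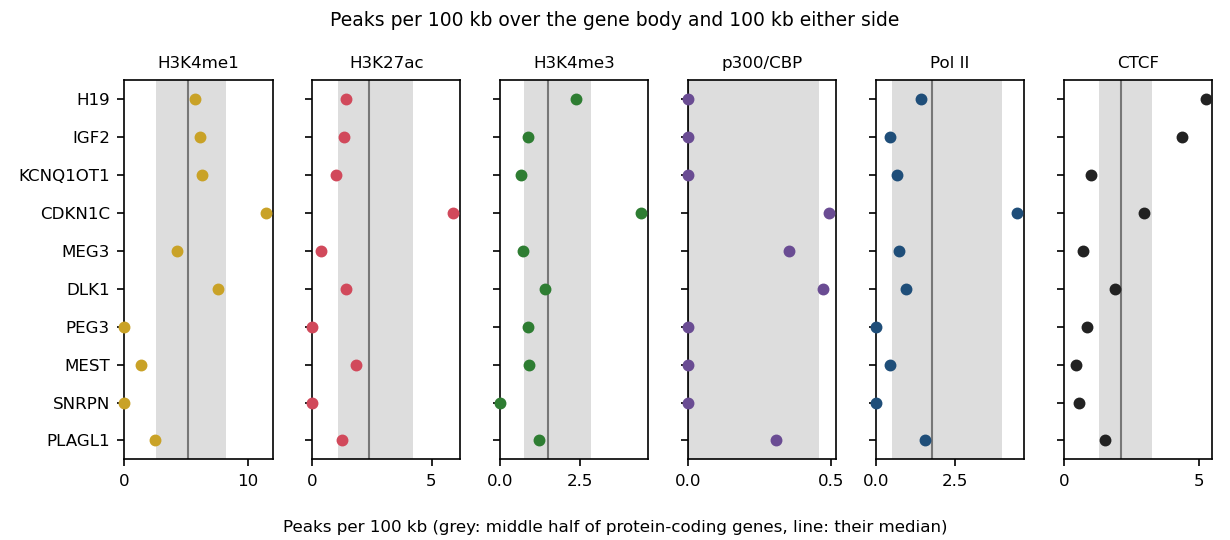
Each point is a member's number of peaks per 100 kb over its body and 100 kb on either side, 1 panel per list, and the grey band and line are the quartiles and the median of protein-coding genes. CDKN1C lies to the right of the band for H3K27ac (5.92), H3K4me3 (4.44) and Pol II (4.44), and H19 (5.25) and IGF2 (4.36) lie to the right of it for CTCF.

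Sequence words known from imprinted promoters were counted in the 3 kb windows on both strands. ZFP57, a zinc finger protein that keeps methylation at imprinting control regions, recognises TGCCGC when it is methylated. At least 6 such words were found in 4 of the 10 canonical windows: PEG3 and MEST had 7 each, and KCNQ1OT1 and PLAGL1 6 each. Of all protein-coding windows 1.94% had as many, and of the CpG-rich ones 2.81%. The cutoff of 6 was not planned beforehand and is the lowest count of the 4, so an excess was not tested. KCNQ1OT1 is a lncRNA gene, and no such share was counted for lncRNA windows. Among the other starts, H19 at 2022536 had 7, MEG3 at 101292461 had 6 and MEST at 130131170, whose window overlaps the canonical one, had 6. The PLAGL1 distal start, which carried the peaks, had 2. Words and marks were not paired in every gene: KCNQ1OT1 had 6 words and peaks of 4 lists, and PEG3 had 7 words and no peak.

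The word AAGATGGC is the core of the YY1 motif, and YY1 is known to bind PEG3. PEG3 had 3 of them in its canonical window and 6 in that of its second start at 57349186, windows that overlap. Of protein-coding windows, 0.186% held 3 or more. That cutoff is PEG3's own canonical count, and both PEG3 and ZIM2, which share a start, are among these windows, so rarity was not tested. Neither PEG3 window touched a peak.

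Other imprinted genes, a list of 48 taken from general knowledge, were read in the same way. H3K27ac touched the canonical windows of 21 of the 40 protein-coding genes (52.5%) and of 1 of the 8 lncRNA genes (12.5%), shares that stand beside the 61.4% and 27% of all such genes. Of the 40, 21 held H3K4me3, 16 Pol II and 16 H3K4me1, against 62.7%, 58.4% and 59.3% of all protein-coding genes. CTCF was found at 3, against 17.6%, and p300/CBP at 1, against 0.769%. No peak was touched by 14 of the 40, against 28.0%. Of the 8 lncRNA genes, 1 held H3K4me1, against 33.6%, and 7 touched no peak, against 56.3%. None of the 8 held H3K4me3, Pol II, CTCF or p300/CBP, against 24.4%, 24.4%, 11.5% and 1.83%. The list is not apart from the members. SNURF shares the canonical TSS of SNRPN, ZIM2 that of PEG3, and HYMAI starts next to that of PLAGL1. These windows are among those without a peak. The canonical windows of IGF2-AS and MESTIT1 overlap those of IGF2 and MEST. Within the list, the windows of WT1 and WT1-AS, of ZNF597 and NAA60, and of PEG10 and SGCE overlap. The counts are therefore not independent.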

How the data were processed

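For each of the 6 antibodies the deposited file lists peak positions and no value per peak. The authors aligned reads to hg19, built a signal over 50 bp bins from reads that mapped uniquely (PASHA), merged replicates and took as peaks the bins above a threshold per antibody. The names of the lists mark scaling and background subtraction for H3K4me1, H3K4me3, H3K27ac and p300/CBP, scaling alone for Pol II, and neither for CTCF. The 6 lists were therefore not labelled as made alike. The methods name BWA-backtrack as the aligner and the submitters' processing notes name Bowtie2. A region to which reads cannot be mapped uniquely gives no peak in such lists.

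Peak bounds all lie 1 past a multiple of 50, and ends were read as the first base after a peak. TSSs and genes came from GENCODE release 44 mapped to hg19, and sequence from the GRCh37 genome, whose chromosome lengths no peak exceeded. A shared stretch of 1 bp counted as overlap. CpG measures cover 1 kb around a TSS. Python 3.11.15, NumPy 2.4.6, pandas 2.3.3 and pysam 0.24.0 were used, with matplotlib 3.10.9 for figures. On simulated peaks the interval functions gave 0 wrong results of 3020.

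The members and lists were chosen with earlier results of these data known. Every member is named, other imprinted genes singly where they lie within 100 kb of a member, and other genes where a named peak touches their canonical window or they mark the cell type. Named peaks are those at a member's starts, the nearest of each list, the CTCF peaks between H19 and IGF2, and, chosen after their positions were seen, some further peaks in bodies and flanks. The CpG-rich background, the repeat search and the counts from the downstream H19 start were also added after the data had been seen. So were the density window for CTCF peaks and the cutoffs for the ZFP57 and YY1 words. No test was made, since each antibody gives 1 list. Alternatives changed the TSSs, the window, the overlap, the flank, the bounds and the width of peaks kept. Inputs, and the RNA and Fra-1 and Fra-2 data of the study, were not used here.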

Additional observations from a re-analysis of the deposited data

How the results depend on the processing

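Of 44 alternatives to 10 counts and shares, 21 stayed within 1.5 times the main value and 23 did not. With all annotated TSSs in place of the canonical ones, the members with a peak rose from 2 to 7 for H3K4me1, from 2 to 4 for H3K27ac, from 2 to 5 for H3K4me3 and from 1 to 4 for CTCF. The shares over all genes were not counted with all TSSs, so these counts have no background. A 1 kb window gave 1 for H3K4me1 and 0 for CTCF. A 10 kb window gave 4 for H3K4me1, 4 for H3K4me3 and 2 for CTCF, and requiring the peak centre inside the window gave 0 for CTCF. Dropping peaks narrower than their list's median gave 1 member each for H3K4me1, H3K27ac, H3K4me3 and Pol II. It also gave 11 cAEs in place of 21 and 12 other imprinted genes with H3K27ac in place of 22. The cAEs numbered 13 with 50 kb flanks and 8 when H3K27ac had to cover 50% of each H3K4me1 region. CTCF peaks between H19 and IGF2 numbered 1 in the main count and 7 with 10 kb added on either side. From the downstream H19 start, a choice made after seeing the data, they numbered 7, or 5 with peaks less than 500 bp apart joined and 3 with narrower peaks than the median dropped. The looser word GNNGGCAG was held by 40.0% of CTCF peaks, against 24.5% of stretches 2 kb to the right.

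No paired analysis was possible because replicates were merged before peaks were called, and leaving out a replicate was not possible for the same reason. A stricter threshold was not run, since the lists give no value per peak, and width stood in for it. Depth is unknown, so a bare window means no called peak, not absence of the mark, and parental copies cannot be told apart.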
